A study of Hordeum vulgare with 12 samples.

Results

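Wild-type (WT) inflorescences of barley (Hordeum vulgare) at stage W3.5 were set against WT inflorescences at the earlier stage W2.0. All plants were of the spring cultivar Golden Promise, a common host for genetic transformation. Genes were kept where at least 1 of the 2 WT means reached 1 FPKM (reads scaled for the length of a gene and the depth of its library). This kept 18863 of the 29014 identifiers in the deposited table, or 65%. The series held 12 libraries in 4 groups of 3: WT W3.5, WT W2.0, mutant W3.5 and mutant W2.0. Each library was made from RNA of 15 to 20 pooled spikes, so a value is an average over plants and over all cell types of the young spike. Which gene the mutant lacks or carries in changed form is given only by the letters FEA in the series text and F4 in the column names. The design text speaks of W2.0 and W3.0, and the sample labels, which give W2.0 and W3.5, were followed. Nothing in the files pairs the identifiers with gene names, so markers of the inflorescence or of carried-along leaf could not be checked, and identifiers stand in for names.

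On the Waddington scale of barley and wheat development, W2.0 is the double ridge stage. At that stage the apex has turned from making leaves to making the spike, and spikelet ridges form above leaf ridges that no longer grow out. By W3.5 the spikelets have begun to form florets, and stamen primordia are visible. The comparison therefore spans the change from an axis that lays down spikelet meristems to one in which floral organs are being formed.

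The table gives 1 mean per group, and the values of the 3 libraries behind each mean were recovered for part of the genes. Each mean combines whole read numbers from 3 libraries of different depth over 1 gene length. For part of the weakly expressed genes, 1 set of whole numbers was accepted under a model of replicate spread. Other sets can give the same means, and the model chose between them. The recovered depths ran from 63298092 to 75896357 reads. Library values were had for 4299 of the 18863 genes kept (22.8%). The search was tried for the 7875 genes whose 4 group means were all at or below 9.95 FPKM. It left 3576 of them unsolved, and 10988 more abundant genes were beyond its reach. The libraries of a group are called A, B and C by falling depth, since nothing ties them to the replicate numbers of the labels. Within a WT stage, the median coefficient of variation between libraries was 16.1% at W3.5 and 17.5% at W2.0 for genes whose higher mean lay at 4 to 16 FPKM, over genes with at least 20 reads in each library of the stage. For genes at 1 to 4 FPKM it was 23.3% at W3.5 and 25.4% at W2.0.

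The WT W2.0 libraries differed among themselves, with library B at one end and library A at the other. Across the 4129 tested genes kept, the mean Pearson correlation of library B with the 3 WT W3.5 libraries was 0.522, against 0.762 for library A and 0.692 for library C of WT W2.0. With the other libraries of their own group the mean correlation was 0.716 for B, 0.712 for A and 0.787 for C. These are correlations across genes, which are not independent replicates. Of the 4299 genes with library values, 16 lay at least 2-fold above both other libraries of the group in WT W3.5 library A, 48 in library B and 27 in library C. In WT W2.0 the same count was 28 genes for library A, 202 for library B and 8 for library C. Counts of genes at least 2-fold below both others were 17, 11 and 28 for WT W3.5 libraries A, B and C, and 105, 14 and 15 for the WT W2.0 libraries. The first principal component of the 6 WT libraries, with 49.4% of the variance, placed the WT W3.5 libraries between -21.8 and -11.1. It placed WT W2.0 library A at 0.1, library C at 14.6 and library B at 31.2. The stages did not overlap on this axis, but the WT W2.0 libraries were spread over a wider stretch of it than the gap between the stages. What sets libraries A and B of WT W2.0 apart was not tested.

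**Figure D1:**
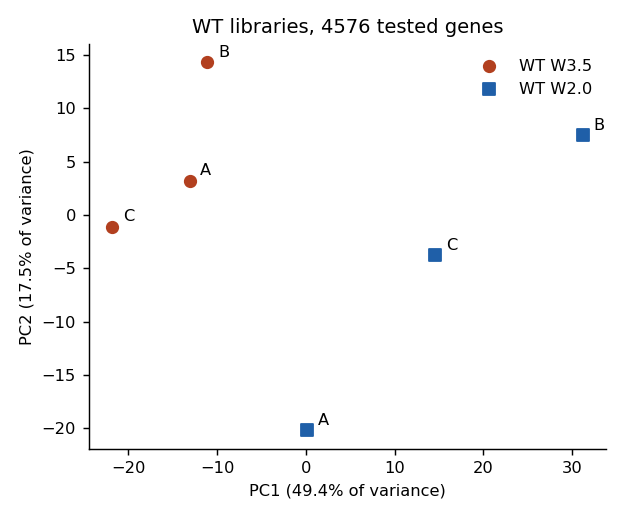
Principal components of log2(FPKM + 1) in the 3 WT W3.5 libraries (circles) and the 3 WT W2.0 libraries (squares) over 4576 tested genes. On the first axis the WT W3.5 libraries lie at or below -11.1, and the WT W2.0 libraries run from 0.1 for library A to 31.2 for library B.

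Most genes differed little between the stages. Differences are log2(WT W3.5 mean + 1) minus log2(WT W2.0 mean + 1), so a positive value is higher at W3.5, and the added 1 FPKM makes the differences of weak genes look smaller. Of the genes kept, 16207 (85.9%) differed by less than 1.5-fold, and the median difference was 0.06. The order of abundance was close to the same, with a Spearman correlation of 0.959 across genes. Of the 100 most abundant genes at W3.5, 88 were also among the 100 most abundant at W2.0. These top genes held 22.9% of all FPKM at W3.5 and 21.7% at W2.0. The rank correlation between the mutant stages over the genes kept was 0.976.

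The genes that did differ were mostly lower at W3.5. On this scale 788 genes (4.18%) lay 2-fold or more below W2.0 at W3.5, and 209 genes (1.11%) lay 2-fold or more above it. At 4-fold the split was 229 lower and 4 higher, and at 8-fold it was 76 lower and 2 higher. In whole tissue, fewer cells that express a gene and less RNA per cell cannot be told apart. No test goes with these counts, since the table holds 1 mean per stage. They also lean on WT W2.0 library B. Among the 4299 genes with library values, 308 (7.16%) had means at least 2-fold lower at W3.5 and 35 (0.814%) at least 2-fold higher. The recovery was uneven by direction, so these genes are not an even sample of the weak genes. Of the genes kept for which it was tried, it solved 69.8% of the lower, 49.3% of the higher and 54.6% of all. Without library B the counts were 144 lower and 38 higher, and 130 of the 308 genes were still 2-fold lower. Leaving out any other WT library gave 296 to 358 lower genes and 35 to 76 higher genes.

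**Figure D2:**
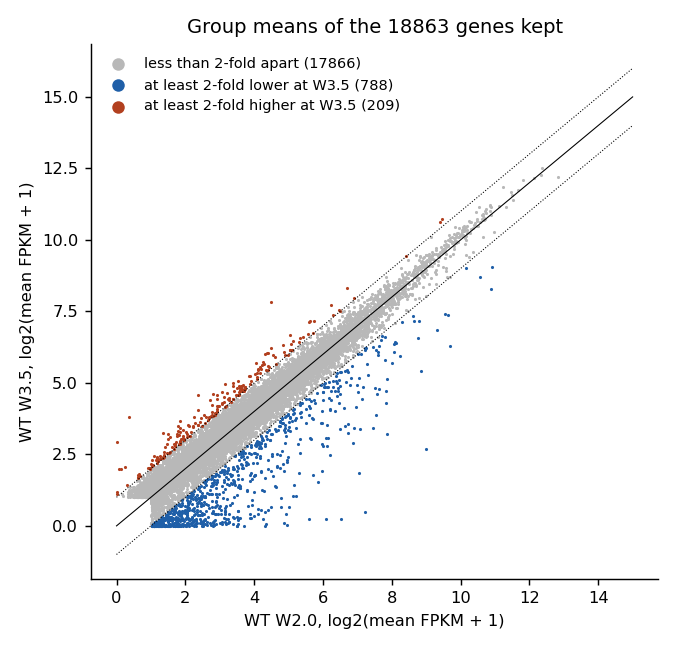
Each point is 1 of the 18863 genes kept, with its WT W2.0 mean on the horizontal axis and its WT W3.5 mean on the vertical axis, both as log2(FPKM + 1), and dotted lines 2-fold from equality. Of the 788 lower genes 229 lie 4-fold or more below the diagonal, against 4 of the 209 higher genes above it, and the added 1 FPKM keeps weak genes close to the lines.

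By the means, the lean towards lower genes held over the whole range of abundance, including genes too abundant for library values. How far it leans on WT W2.0 library B in those abundant genes could not be checked. Genes were classed by the higher of their 2 WT means, in steps of 4-fold from 1 FPKM, with all genes above the fourth step together. At 1 to 4 FPKM, 279 of 4191 genes were 2-fold lower or more (6.66%) and 22 were higher (0.525%). The added 1 FPKM weighs most on this class, and with 0.1 FPKM added instead the counts were 464 lower and 272 higher. At 4 to 16 FPKM the counts were 259 lower and 84 higher of 6563 genes. At 16 to 64 FPKM they were 145 lower and 74 higher of 5897 genes, the class with the smallest share of lower genes, 2.46%. In the fourth step, from 64 FPKM, 84 of 1776 genes were lower (4.73%) and 25 were higher. Above it, among the most abundant genes, 21 of 436 were lower (4.82%) and 4 were higher. Above 16 FPKM together, 250 of 8109 genes were lower (3.08%) and 103 were higher (1.27%). The median difference of a class ran between -0.019, in the fourth step, and 0.146, in the most abundant genes.

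**Figure D3:**
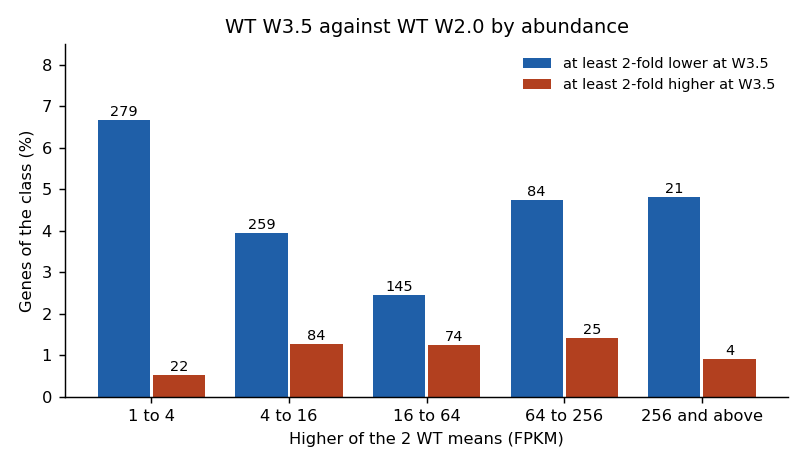
Share of the genes in each class of abundance (FPKM of the higher WT mean) that were at least 2-fold lower (left bars) or higher (right bars) at WT W3.5 than at WT W2.0, with the number of genes above each bar. Lower genes outnumber higher ones in all 5 classes, by 279 to 22 in the lowest, where 0.1 FPKM added in place of 1 FPKM makes it 464 to 272, and by 21 to 4 in the highest.

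Among genes at 16 FPKM or more, HORVU2Hr1G070700 had the most negative difference, with 0.4 FPKM in WT W3.5 against 147 FPKM in WT W2.0, or -6.72. In the mutant it had 1.22 FPKM at W3.5 and 7.66 FPKM at W2.0. All other groups were therefore far below WT W2.0. The most positive difference was that of HORVU6Hr1G029190, with 226.1 FPKM in WT W3.5 against 21.4 FPKM in WT W2.0, or 3.34. In the mutant it had 183.3 FPKM at W3.5 and 218.1 FPKM at W2.0, so WT W2.0 was the group that stood low. Both means are too high for library values, and neither difference has a replicate check. What these genes encode is not given in the files.

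Among the 436 most abundant genes, the 25 that were 2-fold apart or more held some of the major transcripts of the tissue. The following genes were chosen after their values were seen. A gene whose identifier places it on chromosome 7H had 5.51 FPKM in WT W3.5 against 513.4 FPKM in WT W2.0, and 8.5 FPKM in mutant W3.5 against 60.5 FPKM in mutant W2.0. Another of 7H had 311.2 FPKM in WT W3.5 against 1884 FPKM in WT W2.0, and 779.6 FPKM against 648.9 FPKM in the mutant. The first had the lower mean at W3.5 in both genotypes, and the second had it in WT but not in the mutant. A pair of genes of 4H moved side by side. One had 77.9 FPKM in WT W3.5 against 833.7 FPKM in WT W2.0, and the other 41.7 FPKM against 463.4 FPKM. In the mutant the pair had 125.2 FPKM against 282.7 FPKM and 69.2 FPKM against 155.3 FPKM. Of all 21 lower genes of this class, 15 were also lower at W3.5 in the mutant, where 52.9% of all genes kept were. By 2-fold or more 9 of them were lower in the mutant, against 2.29% of the 436 genes. In 19 of the 21 both mutant means lay below the WT W2.0 mean. Their choice for a high WT W2.0 mean favours that count, and nothing is read from it. The 4 higher genes had 697.2, 1565, 1706 and 320.1 FPKM in WT W3.5 against 342.9, 671.5, 705 and 103.5 FPKM in WT W2.0. In the mutant, 2 of these 4 were higher at W3.5, as were 47% of all genes kept.

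Some of the genes that differed were expressed at W2.0 and close to silent at W3.5, and the opposite pattern was rare. In 137 of the 788 lower genes the WT W3.5 mean was below 1 FPKM and the WT W2.0 mean at 4 FPKM or more. In 2 genes it was the other way round. For the mutant stages the same counts were 18 and 13 genes. The 137 genes had medians of 0.331 FPKM in WT W3.5, 6.56 FPKM in WT W2.0, 1.35 FPKM in mutant W3.5 and 2.18 FPKM in mutant W2.0. The mutant was thus not silent for most of them at W3.5, where 49 of the 137 were below 1 FPKM. Library values were had for 55 of the 137, and WT W2.0 library B was the highest of its group in 46 of these. In 25 of the 55 every WT W2.0 library reached 1 FPKM. At 16 FPKM or more at W2.0, 19 genes were below 1 FPKM at W3.5, and no gene showed the opposite at that level. Those 19 genes had 0 to 0.969 FPKM in WT W3.5 against 16.3 to 147 FPKM in WT W2.0, and in all 19 both mutant means were lower than the WT W2.0 mean. They were chosen for a high WT W2.0 mean, so that last count has no test.

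Of the 2 genes with the opposite pattern, one had 13.1 FPKM in WT W3.5 against 0.295 FPKM in WT W2.0, and 5.03 FPKM in mutant W3.5 against 3.6 FPKM in mutant W2.0. The other had 6.57 FPKM in WT W3.5 against 0.00857 FPKM in WT W2.0. Its recovered values, which rest on the model of replicate spread, were 0, 19.7 and 0 FPKM in WT W3.5 libraries A, B and C. In this solution its whole WT W3.5 level came from library B. In the mutant it had 0 FPKM in all 3 W3.5 libraries and 16.2, 1.53 and 4.69 FPKM in the W2.0 libraries. By the accepted solution its WT reads were thus in single libraries, and its mutant W2.0 libraries differed widely. In all, 62 genes were listed at 0 in WT W3.5, with WT W2.0 means up to 18.8 FPKM, and 2 were listed at 0 in WT W2.0, with 1.27 and 1.16 FPKM in WT W3.5.

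The lower genes were spread over all chromosomes, and some lay in runs of neighbours. By the chromosome field of the identifiers, the share of genes at least 2-fold lower ran from 3.26% on 7H to 4.5% on 3H, and the share higher from 0.777% on 5H to 1.54% among genes given no chromosome. In the order of the identifiers among the genes kept, 191 of the 788 lower genes (24.2%) had another lower gene as a direct neighbour. They included 20 runs of 3 or more, and the longest had 5 genes. Of the 209 higher genes, 17 (8.13%) had a higher neighbour, with 1 run of 3. Lower genes made up 4.18% of the genes kept and higher genes 1.11%, so the shares with a like neighbour cannot be compared directly. Neighbouring copies can share reads, and how reads that match several genes were counted is not given in the sources used here. No test was made of this clustering.

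In the 4299 genes with library values, the genes lower at W3.5 were high in WT W2.0 mainly through library B. Over the 308 lower genes, the mean of log2(FPKM + 1) was 0.4, 0.46 and 0.28 in WT W3.5 libraries A, B and C. It was 1.1, 2.44 and 1.44 in WT W2.0 libraries A, B and C. The 2 stages did not overlap in this mean, and library B lay about as far above library C as library C lay above WT W3.5. Library B was the highest WT W2.0 library in 240 of the 308 genes (77.9%), against 33.8% over all 4299 genes. The set depends on the recovery of reads. With a narrower model of replicate spread it held 182 lower genes, and library B was the highest in 74.2% of them. In the mutant the same genes had means of 0.51, 0.68 and 1.06 in the W3.5 libraries and 0.98, 1.02 and 1.23 in the W2.0 libraries. All 3 WT W3.5 libraries lay below all 3 WT W2.0 libraries in 190 of the 308 genes. These libraries chose the genes, so nothing is read from that count. Over all genes with library values, 435 (10.1%) had no overlap in this direction.

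The 35 higher genes had means of 2.26, 2.27 and 2.38 in WT W3.5 libraries A, B and C, against 1.39, 0.96 and 0.94 in the WT W2.0 libraries. Here library A was the highest of the WT W2.0 libraries, in 24 of the 35 genes, and library B did not stand out. In 25 of the 35 genes all WT W3.5 libraries lay above all WT W2.0 libraries, a count that their choice on the same values favours. Of all 4299 genes, 765 (17.8%) had no overlap in this direction. The balance of the directions over all genes depended on scaling. The median of log2(FPKM + 1) over the tested genes kept was 1.69 to 1.75 in the WT W3.5 libraries and 1.59 to 1.68 in the WT W2.0 libraries. With every library centred on its median, the genes without overlap were 606 lower (14.1%) and 520 higher (12.1%).

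WT W2.0 library B was also the highest of its group, by a smaller margin, in genes chosen on the mutant means. Library values were had for 120 genes that were 2-fold lower or more in the mutant W3.5 mean than in the mutant W2.0 mean. Library values exist only for genes that are weak in all groups, so the WT level limits this choice as well. Their mean level was 0.67, 1.14 and 0.62 on the log2 scale in WT W3.5 libraries A, B and C. In the WT W2.0 libraries it was 0.86, 1.68 and 1.35. The stages overlapped, since WT W3.5 library B lay above WT W2.0 library A. Library B was the highest WT W2.0 library in 67 of these genes, library C in 47 and library A in 6. Library B was also the highest WT W3.5 library, in 77 of the 120.

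**Figure D4:**
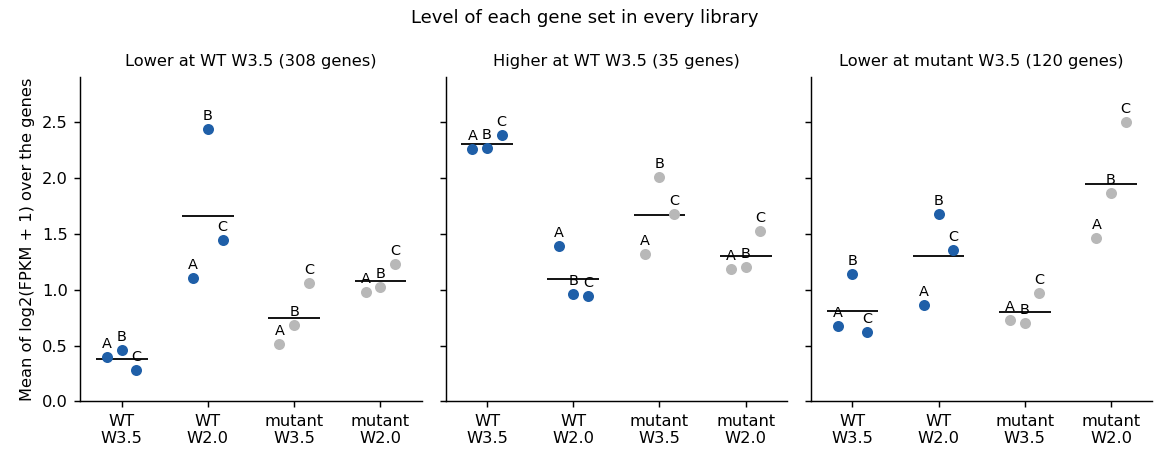
Mean of log2(FPKM + 1) in each library (letters) for the 308 genes at least 2-fold lower at WT W3.5, the 35 genes at least 2-fold higher, and 120 genes chosen on the mutant means; bars mark the mean of the 3 libraries. In the first panel WT W2.0 library B lies at 2.44 and the other 2 libraries of its group at 1.1 and 1.44, all above the WT W3.5 libraries.

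A test was possible for the 4576 recovered genes with at least 1 FPKM in at least 3 of the 12 libraries, 4129 of them among the genes kept. The other 170 recovered genes kept fell under this limit. limma with a mean-variance trend was fitted on log2(FPKM + 1) over all 12 libraries. At a Benjamini-Hochberg adjusted p under 0.05, 30 genes (0.656%) were lower in WT W3.5 and 2 genes (0.0437%) were higher. All 32 were among the genes kept. At an unadjusted p under 0.05 there were 312 lower and 428 higher genes, and with library scaling by median ratios (RLE) instead of the authors' depths 449 lower and 244 higher, so the balance of these differences turned with the scaling. Under that scaling 44 genes were called lower and 2 higher. Nothing in the labels says whether the biological replicates were grown apart, and the p-values measure the spread between these libraries.

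The 30 called lower genes were mainly genes with little or no expression at W3.5. Their WT W3.5 means had a median of 0.187 FPKM and ran from 0 to 5 FPKM. Their WT W2.0 means had a median of 3.14 FPKM and ran from 1.66 to 9.28 FPKM. In 17 of them every WT W3.5 library was below 0.5 FPKM, and in 3 no read was found in any WT W3.5 library. Of the 30, 12 passed the limit on low values only through WT W2.0, the stage where they are high, so these counts describe the called genes and support nothing further. The WT libraries of the 2 stages did not overlap in any of the 30, where 10.1% of all genes with library values had no overlap in this direction. The test on the same libraries favours this, so nothing is read from it. The fitted log2 changes ran from -2.78 to -0.78 with a median of -1.48, where the median over all tested genes was 0.1. WT W2.0 library B was the highest of its group in 16 of the 30, and library A in 7. By the means 28 of the 30 were at least 2-fold lower with all libraries, and 28 without WT W2.0 library B. These libraries chose the genes, and only 7 of the 30 stayed called by limma without library B.

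**Figure D5:**
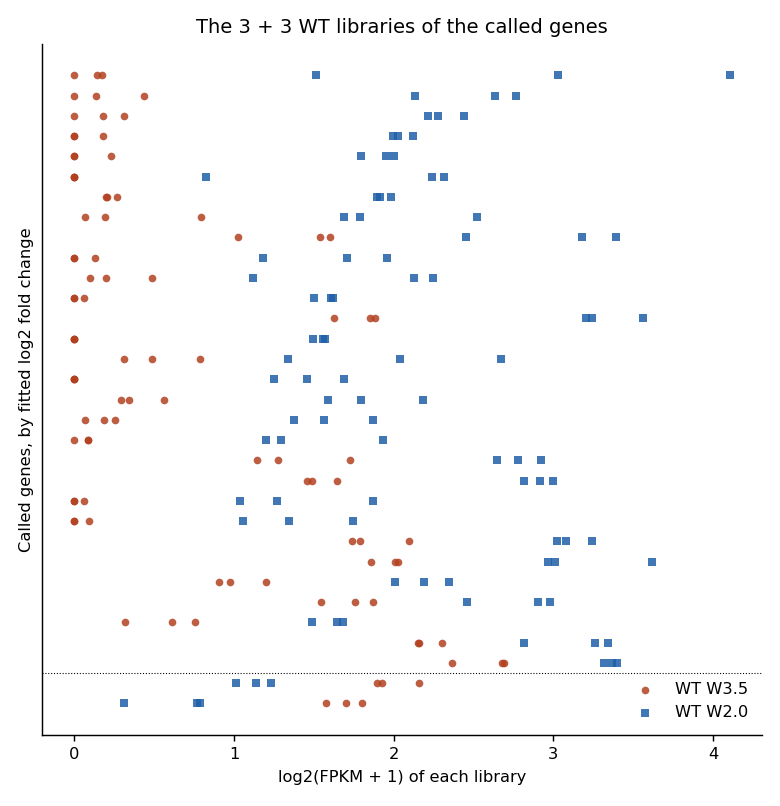
Each row is 1 of the 32 called genes, ordered by fitted log2 fold change, with log2(FPKM + 1) in the 3 WT W3.5 libraries (circles) and the 3 WT W2.0 libraries (squares). Above the dotted line are the 30 genes lower at W3.5, many of them at or near 0 there, and below it the 2 higher genes.

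The largest called fall was that of HORVU3Hr1G113620, whose recovered length was 1125 bases. It had 0.127, 0.103 and 0 FPKM in WT W3.5 libraries A, B and C, which are 10, 8 and 0 reads. In WT W2.0 libraries A, B and C it had 1.86, 16.2 and 7.16 FPKM, from 158, 1331 and 531 reads. Its level was thus far lower in every WT W3.5 library, while the WT W2.0 libraries differed widely among themselves, with library B the highest. limma gave a log2 change of -2.78 ± 0.55 (SE, n = 3 each, adjusted p = 0.0451). Leaving out any WT library other than WT W2.0 library A ended the call, with adjusted p-values of 0.121 to 0.153 in limma, and without WT W2.0 library B the change was -2.17. The mutant had 0.22, 1.54 and 0.239 FPKM at W3.5 and 0.539, 1.1 and 3.21 FPKM at W2.0, with overlapping stages.

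The gene with the lowest adjusted p among the falls, described here after its values were seen, belongs to chromosome 1H by its identifier. It had 0.13, 0 and 0 FPKM in WT W3.5 libraries A, B and C, against 3.34, 3.07 and 2.98 FPKM in the WT W2.0 libraries. The WT W2.0 libraries were close together here, and library B did not stand out. The limma log2 change was -1.99 ± 0.21 (SE, n = 3 each, adjusted p = 0.00289). In the mutant it had 0.5, 0.583 and 1.53 FPKM at W3.5 against 2.95, 2.38 and 1.96 FPKM at W2.0, also without overlap. The mutant difference was smaller and not called, with a limma log2 change of -0.91 ± 0.21 (SE, n = 3 each, adjusted p = 0.251).

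The largest called rise was that of HORVU6Hr1G082310, whose recovered length was 2023 bases. It had 1.98, 2.48 and 2.25 FPKM in WT W3.5 libraries A, B and C, against 0.727, 0.703 and 0.24 FPKM in the WT W2.0 libraries. Reads in the 6 libraries numbered 280, 348 and 303 at W3.5 and 111, 104 and 32 at W2.0. Every WT W3.5 library was well above every WT W2.0 library. The limma log2 change was 1.07 ± 0.2 (SE, n = 3 each, adjusted p = 0.0326). Here too the call ended without any WT library other than WT W2.0 library A, with adjusted p-values of 0.0759 to 0.139 in limma. The mutant had 0.605, 1.19 and 0.82 FPKM at W3.5 and 0.515, 0.532 and 0.468 FPKM at W2.0, a smaller difference in the same direction. The other called rise, with an identifier that gives no chromosome, had 2.72, 3.46 and 2.8 FPKM in WT W3.5 libraries against 1.02, 1.35 and 1.2 FPKM in the WT W2.0 libraries. Its limma log2 change was 0.87 ± 0.16 (SE, n = 3 each, adjusted p = 0.0326). In the mutant it had means of 1.85 FPKM at W3.5 and 1.92 FPKM at W2.0.

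The number of called genes depended on single libraries and on the recovery of reads. With a narrower model of replicate spread in the recovery it was 60, with 49 lower and 11 higher. It was 32 with all libraries and 7 to 80 when 1 WT library was left out. Without WT W2.0 library B, 1 gene was higher and 7 were lower, the 7 lower ones all among the 30. Without WT W2.0 library A, 18 were higher and 62 lower, and 24 of the 30 were among them. Without WT W2.0 library C, 1 was higher and 9 were lower. Among the WT libraries, only the removal of WT W2.0 library A thus raised the count. Removal of any other WT library cut it to 10 or fewer. With 1 WT W3.5 library left out, 9 genes were called without A, 9 without B and 7 without C.

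The genes lower at WT W3.5 were also mostly lower at W3.5 in the mutant, by a smaller amount. The mutant libraries share no sample with the WT pair. Of the 788 genes, 623 (79.1%) had a lower mean in mutant W3.5 than in mutant W2.0, where 52.9% of all genes kept did. Their median difference was -1.53 between the WT stages, which chose them, and -0.45 between the mutant stages. A mutant difference of 2-fold or more downwards was found in 166 of them (21.1%), against 2.33% of all genes kept. One of 2-fold or more upwards was found in 22 (2.79%), against 0.668% of all genes kept. Their median level was 0.95 in WT W3.5, 2.93 in WT W2.0, 1.73 in mutant W3.5 and 2.29 in mutant W2.0 on the log2 scale. The mutant values thus lay between the WT ones at both stages. Summed over the 788 genes, FPKM came to 7793 in WT W3.5, 31453 in WT W2.0, 12737 in mutant W3.5 and 18554 in mutant W2.0.

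The 209 genes higher at WT W3.5 shared their direction with the mutant in 140 (67%), where 47% of all genes kept were higher in mutant W3.5. A mutant difference of 2-fold or more upwards was found in 33 of them (15.8%), against 0.668% of all genes kept. The opposite direction was found in 12 (5.74%), against 2.33%, so both sets held more mutant differences of either sign than all genes did by share. Their median level was 4.04 in WT W3.5, 2.82 in WT W2.0, 3.74 in mutant W3.5 and 3.34 in mutant W2.0 on the log2 scale. As with the lower genes, both mutant medians lay between the WT ones, and the WT values chose the genes.

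Over the genes kept, fewer were 2-fold apart between the mutant stages, 440 lower and 126 higher by the means, than between the WT stages, 788 lower and 209 higher. The genes were kept on the WT means, and the counts were not tested against each other. Part of the WT count rests on WT W2.0 library B. Among genes kept that had library values, 308 were lower and 35 higher in WT, and 144 and 38 without that library. Among genes with library values and at least 1 FPKM in a mutant mean, 120 were lower and 37 higher between the mutant stages, with no library left out. For single genes the difference between the genotypes was tested in the same limma model, as the WT stage difference minus the mutant stage difference. None of the 4576 tested genes (0%) passed an adjusted p under 0.05, and 333 had an unadjusted p under 0.05. limma-voom on the recovered reads also called none, with 284 at an unadjusted p under 0.05. This count depended on the recovery of reads. With a narrower model of replicate spread there, limma called 2 genes, of which 1 had its WT W2.0 reads almost all in a single library in the solution used here, and 1 had no accepted solution here. The means alone do not tell which solution is right. Of the 30 called lower genes, 27 were lower in mutant W3.5 too, with a median log2 change of -0.56 in the mutant, and 55% of all tested genes were lower there. In 18 of the 30 the difference between the genotypes had an unadjusted p under 0.05 in limma, but these genes were chosen for a large WT difference.

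Among the genes with library values, few of the longest were higher at W3.5, a count that rests on 35 of the 209 higher genes. The median length was 995 bases for the 308 lower genes, 869 bases for the 35 higher genes and 1028 bases for all 4299. In 4 equal groups by length, the share of lower genes was 6.15%, 9.3%, 8.09% and 5.12% from the shortest to the longest. Higher genes were 12, 11, 11 and 1 in number in the same order, or 1.12%, 1.02%, 1.02% and 0.093% of each group. The longest group began at 1444 bases. Library values were had for 72.9% of the genes at 1 to 4 FPKM, 19% at 4 to 16 FPKM and none above. The lengths of the other higher genes are not known, so these counts do not describe them.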

How the data were processed

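Deposited were FPKM values, which the authors gave as 1 mean of 3 libraries in each of 4 columns. That these are FPKM follows from the values alone. The tools FastQC, HISAT2 2.0.0 and HTSeq 0.11.2 are named in the submitters' processing notes, and the kit in the labels' protocols does not mark strand. For build and annotation, the sources used here give nothing.

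Depths of the 12 libraries were found from ratios of low values between columns, as numbers within 0.122 of whole numbers. Reads and gene length (60 to 12000 bases searched) were then sought for each gene that give all 4 means within rounding, weighted by a negative binomial model of replicate spread, and accepted at a posterior above 0.99. Recovered values rest on that model, and a narrower model places the reads of some genes otherwise. The scripts were tested on simulated data. No pair of WT libraries agreed within sampling noise: the variance of their read differences was 11.7 to 32.5 times counting error. A tested gene had a median of 145 reads per library.

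Tests used limma 3.58.1 in R 4.3.3, with Python 3.11.15, numpy 2.4.6 and numba 0.67.0. edgeR was not run, since counts per library were recovered here and not read from the table, and limma-voom was the test on those reads.

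The genes named by identifier were the largest rise and fall by the means at 16 FPKM or more, and the largest called rise and fall whose WT libraries did not overlap. The genes and classes were chosen with earlier results of these data known. The alternatives tried were another pseudocount, filter, scaling, threshold, fit over the WT libraries alone, limma-voom, leaving out libraries, and the model and posterior of the recovery.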

Additional observations from a re-analysis of the deposited data

How the results depend on the processing

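The number of genes with WT means at least 2-fold apart, 997, was 1572 with a pseudocount of 0.1 FPKM (1038 lower, 534 higher), 2656 at 1.5-fold (1465 lower, 1191 higher) and 233 at 4-fold. It stayed within 1.5 times of 997 at 4 FPKM or more and relative to the median difference. Without a filter it cannot change, since a 2-fold difference with 1 FPKM added needs a mean of at least 1 FPKM. At 1 to 4 FPKM the pseudocount of 0.1 FPKM gave 464 lower and 272 higher genes, and at 4 to 16 FPKM 316 lower and 151 higher. Lower genes outnumbered higher ones in all of these settings. The number of called genes, 32, was 9 with limma-voom (6 lower, 3 higher) and 49 with upper-quartile scaling (45 lower, 4 higher). It was 7 to 80 without 1 WT library and 16 to 51 without 1 mutant library, a setting chosen after seeing the data, as were those of the next 2 sentences. Centring every library on its median gave 1126 genes without overlap between the WT stages, against 1200. Genes with library values and means 2-fold apart numbered 343, and 182 to 434 without 1 WT library. The median log2 change of all tested genes, 0.102, was 0.004 with RLE size factors and 0.155 with limma-voom. The recovery was also varied after seeing the data. A narrower model of replicate spread gave 60 called genes, which included 30 of the 32, 2 genes called for the difference between genotypes, and 211 genes 2-fold apart with library values. A wider model gave 43 called genes and a stricter posterior gave 37. WT W2.0 library B was the highest of its group in 74.2%, 77.7% and 77% of the genes 2-fold lower under the narrower, wider and stricter setting. The difference between genotypes gave 0 calls in every setting but the narrower model. HORVU3Hr1G113620 stayed called in 11 of 21 settings (adjusted p 0.00484 to 0.429) and HORVU6Hr1G082310 in 14 of 21 (adjusted p 0.0175 to 0.139), both by limma, with the same sign throughout. No paired analysis was possible because the columns carry no replicate numbers, and the replicate block was not run. edgeR's test was not run either. Genes above 9.95 FPKM have no library values, so their differences have no measure of error.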
